A study of Bos taurus with 3 samples.

Results

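The genes described here are 10 ligands and receptors of the VEGF and angiopoietin pathways, out of 27270 genes counted in the rumen of newborn calves. They were chosen by name: the VEGF ligands VEGFA and PGF, the VEGF receptors KDR, FLT1 and FLT4 with the co-receptor NRP1, the angiopoietin receptor TEK with its partner TIE1, and the angiopoietins ANGPT1 and ANGPT2. All 10 had a row in the matrices and at least 1 unique molecular identifier (UMI, a tag that marks 1 captured RNA molecule) in kept cells. The rule that lists them uses names only, and the clusters behind the classes and subsets below were drawn without these genes and without the other pathway genes listed further on. The clusters were then named from marker lists, and the endothelial list held CDH5, which is also 1 of those pathway genes.

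Rumen tissue stripped of its outer muscle was taken from 3 newborn Holstein calves 1 day after birth, and its cells, freed with trypsin and collagenase, were captured in droplets in a separate library for each animal. The calves were untreated and form a single group, and the adult rumen was not analysed here. Calves 1, 2 and 3 yielded 7529, 12043 and 11656 barcodes, and 4695, 9746 and 9601 of these were kept after the filters and the removal of called doublets. Between 11 and 25 barcodes were shared by the kept cells of a pair of libraries.

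VEGF ligands act on receptor tyrosine kinases of endothelial cells, where KDR carries most of the growth and permeability signal, FLT1 binds VEGFA and PGF tightly and also serves as a decoy, and FLT4 is best known as the receptor of lymphatic vessels. NRP1 binds VEGFA and semaphorins and is found on several cell types. ANGPT1, usually made by the cells around vessels, activates TEK and steadies the vessel wall, whereas ANGPT2 can oppose it and loosens the vessel, and TIE1 modulates TEK without a classical ligand of its own. The newborn rumen is lined with a growing stratified epithelium over a stroma rich in vessels.

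The kept cells fell into 21153 epithelial, 1304 endothelial, 452 fibroblast, 306 mural and 750 immune cells, and 77 cells of mixed clusters were left out. Mural cells are the smooth muscle cells and pericytes wrapped around vessels, and the class here was named by markers such as ACTA2 and RGS5. The paper names myofibroblasts but no mural cells in this tissue, and whether the cells of this class lay at vessels was not tested. Calf 1 gave few cells outside the epithelium, with 75 endothelial, 14 fibroblast, 4 mural and 10 immune cells, so that mural values come from calves 2 and 3 and the fibroblast and immune values of calf 1 rest on very few UMIs. The classes were named by the marker lists that follow, so the sums describe the classes and do not test their names. The 8 endothelial markers, among them CDH5 and PECAM1, summed to 52.2 UMIs per 10000 in endothelial cells and 0.0851 in epithelial cells. The 8 fibroblast markers summed to 625 in fibroblasts and 41.2 in mural cells, and the 12 mural markers to 129 in mural cells and 9.30 in fibroblasts. Epithelial markers, which summed to 178 UMIs per 10000 in epithelial cells, were at 6.23 in endothelial cells, 11.4 in fibroblasts, 8.09 in mural cells and 5.69 in immune cells, and the part of free RNA in the values below was not tested. A level means a gene's UMIs for every 10000 UMIs in the sum over a class or subset within 1 calf, and levels are compared within a gene, not between genes.

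Receptors of the vessel wall were held by endothelial cells. These cells carried 94.8% of the 2961 KDR UMIs of kept cells, 95.1% of the 1500 FLT1 UMIs, 90.3% of the 1241 TEK UMIs and 96.1% of the 178 TIE1 UMIs. The other genes were spread otherwise: 94.2% of the 5241 VEGFA UMIs lay in epithelial cells, which held 93.9% of all UMIs of kept cells. The 336 ANGPT2 UMIs were split between endothelial cells, with 48.5%, and mural cells, with 42.0%, and mural cells held 41.0% of the 100 PGF UMIs.

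**Figure D1:**
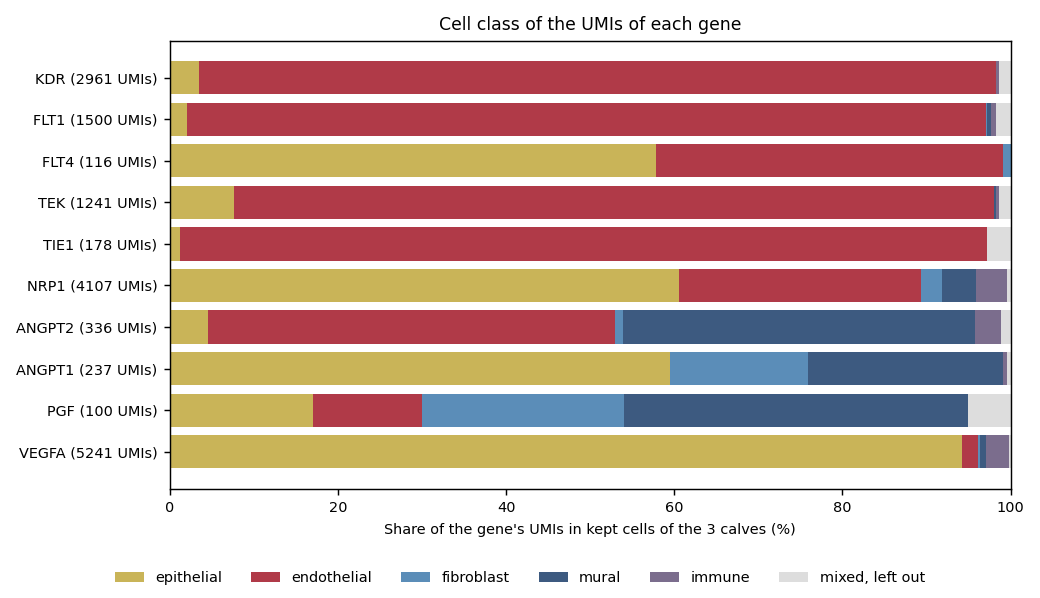
Share of the UMIs of each gene that lay in each cell class, in percent of its UMIs in the kept cells of the 3 calves together. Each bar is 1 gene with its number of UMIs, the red part is endothelial, and the grey part is cells of mixed clusters; classes differ in cell number and depth, so the bars show where the UMIs were and not the level per cell.

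KDR, the main signalling receptor for VEGFA, reached 4.96, 3.45 and 5.32 UMIs per 10000 in the endothelial cells of calves 1, 2 and 3 (4.58 ± 0.991, SD, n = 3 calves). Its level in epithelial cells was 0.00519 ± 0.00307 (n = 3), and it had 8 UMIs in immune cells, 1 in mural cells and 0 in fibroblasts. Every calf's endothelial level lay above every level of the other classes, and the endothelial level was at least 139-fold above the fibroblast level, taking 3 UMIs over the pooled fibroblasts as the limit that a count of 0 allows. After each cell was thinned to 2000 UMIs, a KDR UMI was found in 55.2% ± 9.50 of endothelial cells (60.6%, 44.2% and 60.8% per calf, n = 3) and 0.112% of epithelial cells, with median depths before thinning of 3909 and 7656 UMIs; without thinning the endothelial share was 72.0%.

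FLT1, which binds VEGFA and PGF, followed the same order, with endothelial levels of 2.71, 1.63 and 2.78 UMIs per 10000 (2.37 ± 0.645, SD, n = 3). Mural cells came next at 0.0959 and 0.104 in calves 2 and 3, from 8 UMIs, and did not overlap with the endothelial values. A FLT1 UMI was found in 34.1% ± 7.85 of thinned endothelial cells (n = 3) and 0.0444% of thinned epithelial cells. Within the endothelium, calf 2 was the lowest of the calves for both receptors. In cells at full depth, 72.1% of the 1304 endothelial cells had a KDR UMI, 54.4% a FLT1 UMI and 44.7% both.

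TEK, the receptor of the angiopoietins, stood at 1.22, 1.97 and 1.79 UMIs per 10000 in endothelial cells (1.66 ± 0.393, SD, n = 3) and TIE1 at 0.213, 0.241 and 0.312 (0.255 ± 0.0510, n = 3). Here calf 1 was the lowest of the calves. TIE1 had no UMI in fibroblast, mural or immune cells and 2 in epithelial cells, and TEK had 4 UMIs in mural cells, 4 in immune cells and none in fibroblasts. A TEK UMI was found in 23.7% ± 7.43 of thinned endothelial cells and 0.0781% of thinned epithelial cells, and a TIE1 UMI in 5.58% ± 1.81 and in 0 of 20643, an upper limit of 0.0145%. Of all endothelial cells at full depth, 39.7% held UMIs of both KDR and TEK.

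FLT4, the receptor for VEGFC and VEGFD, was sparse. Its 116 UMIs were split between epithelial cells, with 67, and endothelial cells, with 48, but per UMI the endothelial level was higher: 0.0912, 0.101 and 0.0612 in calves 1, 2 and 3 (0.0846 ± 0.0209, SD, n = 3) against 0.00344 ± 0.00310 in epithelial cells. Every calf's endothelial value lay above every epithelial one, and the pooled ratio was 21.7 with a 95% counting interval of 14.7 to 31.9. The gene was too low for the filter of the fitted comparison of classes and was not tested there. Of the 67 epithelial UMIs 48 came from calf 3. Of the epithelial layers below, the 6487 basal-like cells held 25, 20 of them in calf 3, and the 1447 suprabasal-like cells none. The rest lay in clusters of neither layer, and FLT4 was not tested between the layers.

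NRP1 was the least endothelial of the receptors. Its levels were 2.25, 1.84 and 1.96 UMIs per 10000 in endothelial cells (2.01 ± 0.213, SD, n = 3), 1.41 and 2.43 in mural cells of calves 2 and 3 (1.92 ± 0.727, n = 2) and 1.49, 0.757 and 1.39 in fibroblasts (1.21 ± 0.396, n = 3). The endothelial and mural values overlapped, as did the mural and fibroblast values. Immune cells were at 0.279 ± 0.138 (n = 3) and epithelial cells at 0.205, 0.137 and 0.0792 (0.140 ± 0.0630, n = 3), and since epithelial cells are numerous they held 60.6% of the NRP1 UMIs. The pooled endothelial level was 14.4 times the epithelial level (counting interval 13.4 to 15.4), where the same ratio was 834 for KDR (685 to 1027). An NRP1 UMI was found in 34.0% ± 7.35 of thinned endothelial cells (n = 3), 28.9% ± 5.92 of mural cells (n = 2), 16.7% ± 5.98 of fibroblasts (n = 2) and 2.95% ± 1.59 of epithelial cells (n = 3), with 58.8% of fibroblasts and 32.0% of mural cells left out as too shallow to thin.

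**Figure D2:**
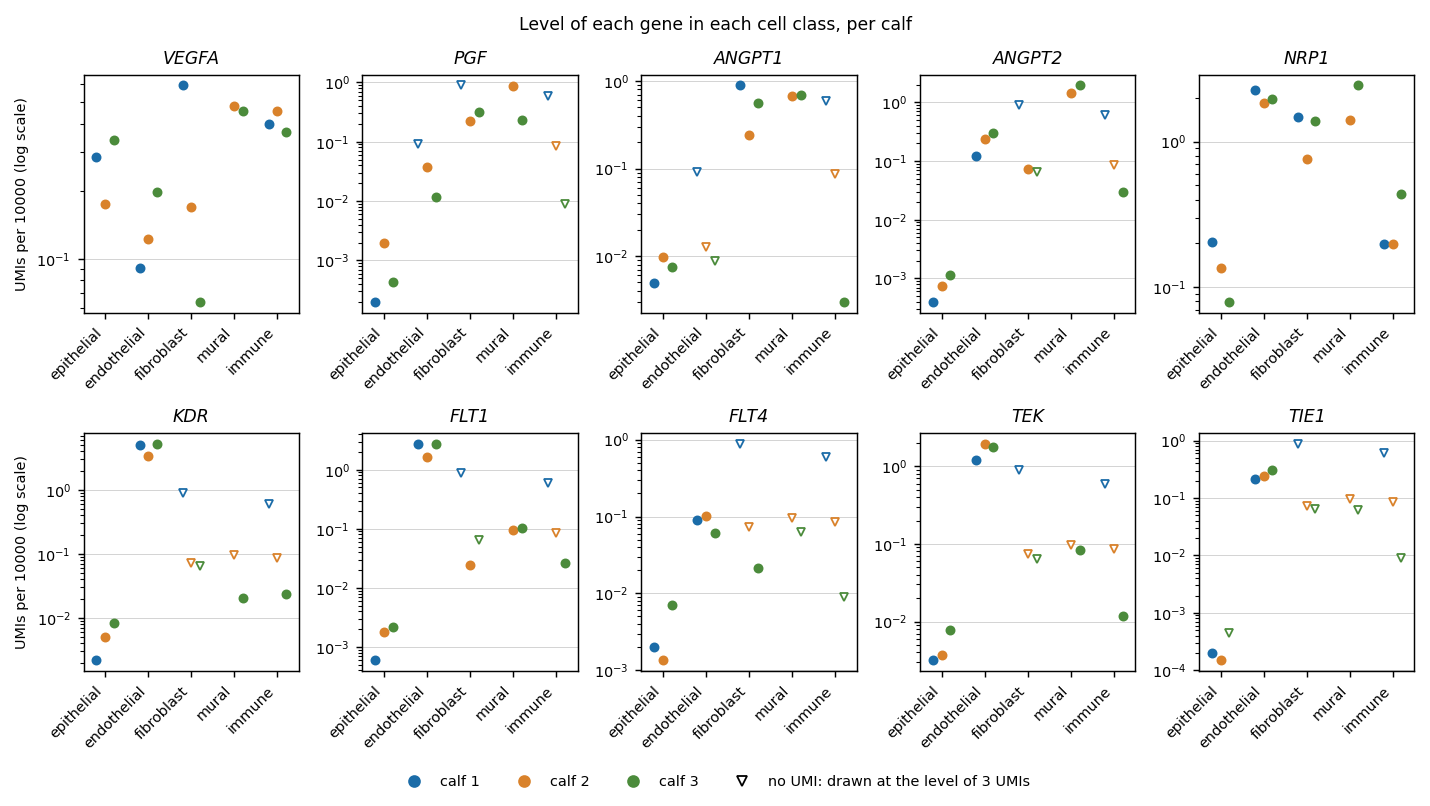
Level of each of the 10 genes in the 5 cell classes, in UMIs per 10000 on a log scale, with 1 point per calf and open triangles at the level of 3 UMIs where a calf had none. KDR, FLT1 and TEK stand highest in the endothelial cells of every calf, and TIE1 in those of calves 2 and 3. For TIE1 in calf 1 the triangles of fibroblast and immune cells stand above the endothelial point, so these classes cannot be ranked there. ANGPT2 stands highest in mural cells of calves 2 and 3, and NRP1 is of like height in endothelial and mural cells. Sums of fewer than 10 cells are not drawn.

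The angiopoietins differed in whether they were found in the cells with their receptor. ANGPT1, the activating ligand, had no UMI in any of the 1304 endothelial cells (pooled limit 0.00489 UMIs per 10000; 0 of 1151 after thinning, an upper limit of 0.261%). It was at 0.671 and 0.687 UMIs per 10000 in mural cells of calves 2 and 3 (0.679 ± 0.0111, SD, n = 2) and at 0.891, 0.244 and 0.555 in fibroblasts (0.564 ± 0.324, n = 3), which overlapped, and at 0.00738 ± 0.00239 in epithelial cells. An ANGPT1 UMI was found in 11.2% ± 0.127 of thinned mural cells, 5.89% ± 2.44 of fibroblasts (n = 2 each) and 0.192% of epithelial cells.

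ANGPT2, the context-dependent ligand, was highest in mural cells, at 1.44 and 1.94 UMIs per 10000 in calves 2 and 3 (1.69 ± 0.352, SD, n = 2), followed by endothelial cells at 0.122, 0.232 and 0.303 (0.219 ± 0.0914, n = 3). The lowest mural value lay above the highest endothelial value. Fibroblasts had 3 ANGPT2 UMIs, immune cells 10, all of them in calf 3, and epithelial cells 15. After thinning, 25.8% ± 6.83 of mural cells (n = 2), 4.72% ± 0.714 of endothelial cells (n = 3) and 0.00826% of epithelial cells had an ANGPT2 UMI. The 3 sums of endothelial cells thus held both the TEK receptor and some ANGPT2, but no ANGPT1.

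PGF, a ligand of FLT1, had only 100 UMIs in kept cells. Mural cells were at 0.863 in calf 2 and 0.229 in calf 3 (0.546 ± 0.448, SD, n = 2), and fibroblasts at 0.220 and 0.320 in the same calves and 0 in calf 1, so that the classes overlapped. Endothelial cells had 13 PGF UMIs, epithelial cells 17 and immune cells none.

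VEGFA, the central ligand, had UMIs in every class and in every calf's sum, as NRP1 did. Its levels were 0.285, 0.175 and 0.340 UMIs per 10000 in epithelial cells of calves 1, 2 and 3 (0.267 ± 0.0843, SD, n = 3), 0.479 and 0.458 in mural cells of calves 2 and 3 (0.469 ± 0.0152, n = 2), 0.399, 0.457 and 0.370 in immune cells (0.408 ± 0.0444, n = 3) and 0.0912, 0.122 and 0.198 in endothelial cells (0.137 ± 0.0550, n = 3). The lowest mural value, 0.458, and the highest immune value, 0.457, were nearly equal, and these classes were not tested against each other. The epithelial values overlapped with the endothelial ones between calves, although within each calf the epithelial level was the higher. Fibroblasts ranged from 0.0641 to 0.594 on 12 UMIs and could not be ranked. A VEGFA UMI was found in 5.43% ± 1.52 of thinned epithelial cells (n = 3) and 2.09% ± 2.01 of thinned endothelial cells, and in 20.2% and 5.73% of these cells at full depth.

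In the fitted comparison of summed cells, with the calf as a block and edgeR's quasi-likelihood test adjusted over 8042 genes, 9 of the 10 genes were testable and all 9 differed between endothelial and epithelial cells, 7 higher and 2 lower, where 49.6% of all genes tested differed (25.8% higher and 23.9% lower). The log2 difference was 9.36 ± 0.36 (SE) for KDR (edgeR adjusted p = 1.6e-14), 10.02 ± 0.36 for FLT1 (edgeR adjusted p = 1.6e-15), 7.998 ± 0.32 for TEK (edgeR adjusted p = 3.1e-14) and 3.46 ± 0.30 for NRP1 (edgeR adjusted p = 1.6e-09), each higher in 3 of 3 calves. NRP1 had the smallest difference of these 4. TIE1, with 2 epithelial UMIs, had a pooled ratio of 2591 (95% counting interval 706 to 21569). VEGFA was lower in endothelial cells by a log2 difference of -1.17 ± 0.29 (edgeR adjusted p = 0.0021), in 3 of 3 calves. Epithelial ANGPT1 was at least 1.55-fold above the endothelial limit, a call lost without calf 2 (adjusted p = 0.099) or calf 3 (adjusted p = 0.14). The ANGPT1 call also did not hold in all of 8 other alternatives, over which its log2 difference ranged from -6.86 to -2.52. The call of PGF, higher in endothelial cells in 2 of 3 calves (3.76 ± 0.84, edgeR adjusted p = 0.00077), was lost without calf 2 (adjusted p = 0.054).

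Against mural cells, 8 of 9 genes differed, where 23.9% of all genes tested did (12.2% higher and 11.7% lower). KDR, FLT1, TEK and TIE1 were higher in endothelial cells, FLT1 by 4.58 ± 0.48 and TEK by 5.31 ± 0.54 on the log2 scale (edgeR adjusted p = 1.1e-07 and 1.4e-07), each in 2 of 2 calves. All 4 ligands were higher in mural cells: ANGPT2 with a log2 difference of -2.67 ± 0.35 (endothelial minus mural; edgeR adjusted p = 3.1e-06), PGF with -4.46 ± 0.77 (edgeR adjusted p = 0.00013), VEGFA with -1.62 ± 0.42 (edgeR adjusted p = 0.0049) and ANGPT1 at least 139-fold above the endothelial limit. The VEGFA call was lost without calf 2 (-1.33, adjusted p = 0.11). For NRP1 the difference was -0.08 ± 0.34 (edgeR adjusted p = 0.92), higher in 1 of 2 calves, which does not show that the classes were alike.

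Against fibroblasts, 7 of 9 genes differed, where 32.3% of all genes tested did (16.5% higher and 15.8% lower). TEK was at least 55.6-fold and TIE1 at least 8.48-fold higher in endothelial cells, and FLT1 had a pooled ratio of 212 (counting interval 38.0 to 8387). ANGPT1 was at least 87.4-fold higher in fibroblasts and PGF higher there too (endothelial minus fibroblast -3.74 ± 0.79, edgeR adjusted p = 0.00085). NRP1, at 0.82 ± 0.34 (edgeR adjusted p = 0.069), and VEGFA, at 0.18 ± 0.53 (edgeR adjusted p = 0.85), did not pass the test. Without calf 3 only 4 genes passed, with PGF at -2.69 (adjusted p = 0.087) and ANGPT2 at 1.60 (adjusted p = 0.30) among those lost, and the ANGPT2 difference of 2.98 ± 0.69 (edgeR adjusted p = 0.0017), which rests on 3 fibroblast UMIs, turned to -0.83 when classes were set by a marker gate.

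Against immune cells, 7 of 9 genes differed, where 38.9% of all genes tested did (19.2% higher and 19.7% lower). Of these 6 were higher in endothelial cells, NRP1 by 2.23 ± 0.36 on the log2 scale (edgeR adjusted p = 2.1e-05) and ANGPT2 by 3.24 ± 0.53 (edgeR adjusted p = 2.6e-05), and VEGFA was lower by -1.50 ± 0.35 (edgeR adjusted p = 0.0016), in 3 of 3 calves each. The TIE1 calls against fibroblast, mural and immune cells did not hold in DESeq2 (adjusted p = 0.40, 0.52 and 0.28).

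Classes outside the endothelium were compared in the same fit. Mural cells exceeded fibroblasts in 2 of 9 genes, where 15.1% of all genes tested differed (7.32% higher and 7.8% lower): ANGPT2, with a pooled ratio of 52.8 (counting interval 17.7 to 259; edgeR adjusted p = 4.9e-07, higher in 2 of 2 calves), and VEGFA, by 1.80 ± 0.55 on the log2 scale (edgeR adjusted p = 0.030). With classes set by a marker gate the ANGPT2 log2 difference went from 5.66 to 1.38 (adjusted p = 0.037). The VEGFA call was lost without calf 2 (adjusted p = 0.12), without calf 3 (adjusted p = 0.50) and without the calf block (adjusted p = 0.052). Epithelial cells and fibroblasts differed in 5 of 9 genes, where 42.7% of all genes did (21% higher and 21.7% lower): NRP1 (-2.64 ± 0.36, edgeR adjusted p = 2.5e-06), ANGPT1 (-5.36 ± 0.59, edgeR adjusted p = 2.3e-07), PGF and ANGPT2 were lower in epithelial cells, and VEGFA was higher in the fit (1.35 ± 0.48, edgeR adjusted p = 0.026) while its mean levels over calves were 0.267 and 0.276. That VEGFA value and the ANGPT2 call each rested on 1 calf, VEGFA falling to 0.34 without calf 3 (adjusted p = 0.78) and ANGPT2 turning to 3.72 without calf 2 (adjusted p = 0.87). Epithelial and immune cells differed in 3 of 9 genes (FLT1, NRP1 and ANGPT2, all lower in epithelial cells), where 51.8% of all genes did (25.6% higher and 26.2% lower), and without calf 3, which held 671 of the 750 immune cells, 0 passed in edgeR.

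The endothelial cells themselves formed 6 subsets, called by their leading gene. The largest, led by DNASE1L3, held 710 cells (47, 317 and 346 in calves 1, 2 and 3), an arterial-like subset with EGFL8, HEY1 and BMX held 344, and subsets led by FABP4, CCL21, NTS and the proliferation gene UHRF1 held 132, 42, 38 and 38. PLVAP, a component of the openings of capillary walls, stood at 29.5 UMIs per 10000 in the DNASE1L3-led subset and 5.10 in the arterial-like one, and IGFBP3 at 3.71 and 19.1. Sums of fewer than 10 cells were not used, so that the first 2 subsets have 3 calves, the next 3 have 2 calves (calves 2 and 3) and the UHRF1-led subset, with only 1 such calf, was not tested.

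The DNASE1L3-led subset was higher in FLT1, NRP1 and ANGPT2 than the other endothelial cells. FLT1 was at 2.88, 2.05 and 3.52 UMIs per 10000 in calves 1, 2 and 3, a log2 difference of 0.97 ± 0.16 (edgeR adjusted p = 1.1e-05), higher in 3 of 3 calves. NRP1 was at 2.22, 2.04 and 2.56 (0.72 ± 0.16, edgeR adjusted p = 0.0017), higher in 2 of 3 calves, and ANGPT2 at 0.131, 0.255 and 0.443 (1.17 ± 0.30, edgeR adjusted p = 0.0059), higher in 3 of 3. Calf 3 was the highest for all of them. The complement genes C1QA and C1QC, known from macrophages, were among this subset's 10 leading genes, and 6 macrophage markers summed to 0.174, 0.310 and 1.19 UMIs per 10000 in its calves 1, 2 and 3, against pooled sums of 0.166 in the arterial-like subset and 20.8 in immune cells. Their part in these differences was not tested. These 3 were the calls among 8 genes tested, where 9.37% of all genes tested differed (4.71% higher and 4.66% lower). KDR (0.40 ± 0.15, edgeR adjusted p = 0.088) and TEK (0.08 ± 0.16, edgeR adjusted p = 0.89) did not pass. Without the calf block none passed, with adjusted p of 0.37 for FLT1, 0.53 for NRP1 and 0.55 for ANGPT2, and without calf 3 NRP1 (adjusted p = 0.53) and ANGPT2 (adjusted p = 0.87) were lost, ANGPT2 also without calf 1 (adjusted p = 0.057). In DESeq2 only FLT1 passed, with adjusted p of 0.20 for NRP1 and 0.73 for ANGPT2.

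The arterial-like subset was lower in the same 3 genes, a comparison that shares its cells with the one before. ANGPT2 was at 0, 0.0224 and 0.0656 UMIs per 10000, against 0.279 in the mean of the other endothelial cells (-2.96 ± 0.45, edgeR adjusted p = 1.7e-06). This call rests on 8 arterial-like UMIs against 155. The 0 of calf 1, from 15 cells, is too shallow to show a level below the 0.147 of the other endothelial cells there. Leaving out a calf gave only 1 value for ANGPT2, at -2.94. NRP1 was at 1.23, 1.07 and 1.05, against 2.28 (-1.21 ± 0.18, edgeR adjusted p = 1.3e-06), and FLT1 at 1.76, 1.10 and 1.98, against 2.60 (-0.84 ± 0.17, edgeR adjusted p = 0.00031). Both were lower in 3 of 3 calves, and ANGPT2 was lower in calves 2 and 3. For NRP1 no arterial-like value reached the lowest DNASE1L3-led value. These were 3 of 7 genes tested, where 13.4% of all genes tested differed (5.78% higher and 7.63% lower). KDR, at 6.34, 3.07 and 3.97, was lower in 2 of 3 calves and did not pass (-0.42 ± 0.16, edgeR adjusted p = 0.077), and TEK, at 1.41, 1.70 and 1.68, was at -0.31 ± 0.18 (edgeR adjusted p = 0.33). The FLT1 call was lost without the calf block (adjusted p = 0.20).

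**Figure D3:**
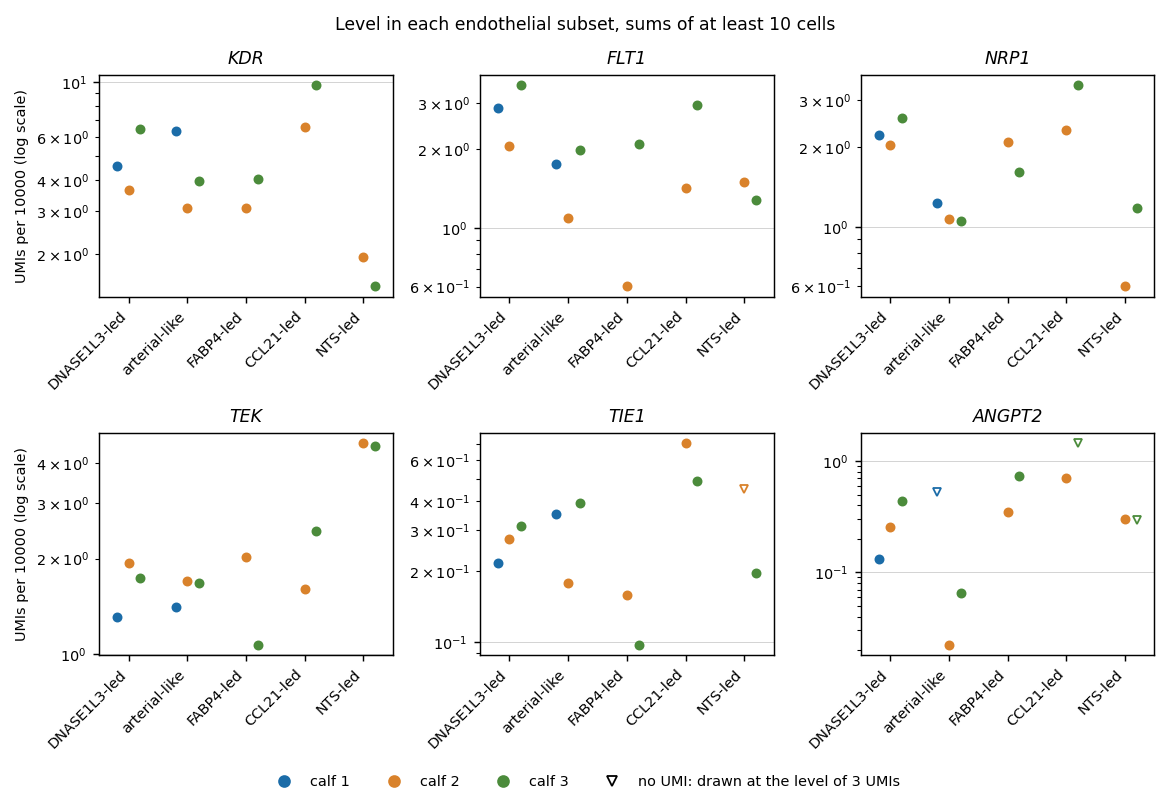
Level of 6 genes in 5 endothelial subsets, in UMIs per 10000 on a log scale, with 1 point per calf for sums of at least 10 cells and open triangles at the level of 3 UMIs where a calf had none. NRP1 is low in the arterial-like subset, as is ANGPT2 in its calves 2 and 3, and the NTS-led subset is lowest in KDR and highest in TEK.

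The NTS-led subset, named for the neurotensin gene, was lower in KDR and higher in TEK than the other endothelial cells in edgeR. KDR was at 1.95 and 1.47 UMIs per 10000 in calves 2 and 3, against a mean of 4.64 in the other endothelial cells (-1.55 ± 0.34, edgeR adjusted p = 0.00026), and TEK at 4.64 and 4.52, against 1.61 (1.198 ± 0.30, edgeR adjusted p = 0.0029). Both calves showed each direction, and the KDR values lay below and the TEK values above those of every other tested subset. A TEK UMI was found in 40% and 61.5% of its thinned cells in calves 2 and 3. NRP1, at 0.599 and 1.18, was lower too (-1.22 ± 0.40, edgeR adjusted p = 0.047). These were 3 of 8 genes tested, where 4.49% of all genes tested differed (1.97% higher and 2.52% lower) and the median log2 difference of all genes was -0.19. The subset rests on 10 and 27 cells, without the calf block only TEK passed (KDR adjusted p = 0.062, NRP1 adjusted p = 0.19), and in DESeq2 none did (adjusted p = 0.25 for KDR, 0.30 for TEK and 0.9997 for NRP1).

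In the FABP4-led subset, FLT1 was lower (0.601 and 2.09 UMIs per 10000; -0.75 ± 0.22, edgeR adjusted p = 0.018) and ANGPT2 higher (0.348 and 0.729; 1.23 ± 0.38, edgeR adjusted p = 0.030), each in 2 of 2 calves, 2 of 7 genes tested, where 4.12% of all genes tested differed (2.44% higher and 1.68% lower). Neither passed without the calf block (adjusted p = 0.81 for FLT1 and 0.57 for ANGPT2) or in DESeq2 (adjusted p = 0.81 and 0.95).

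**Figure D4:**
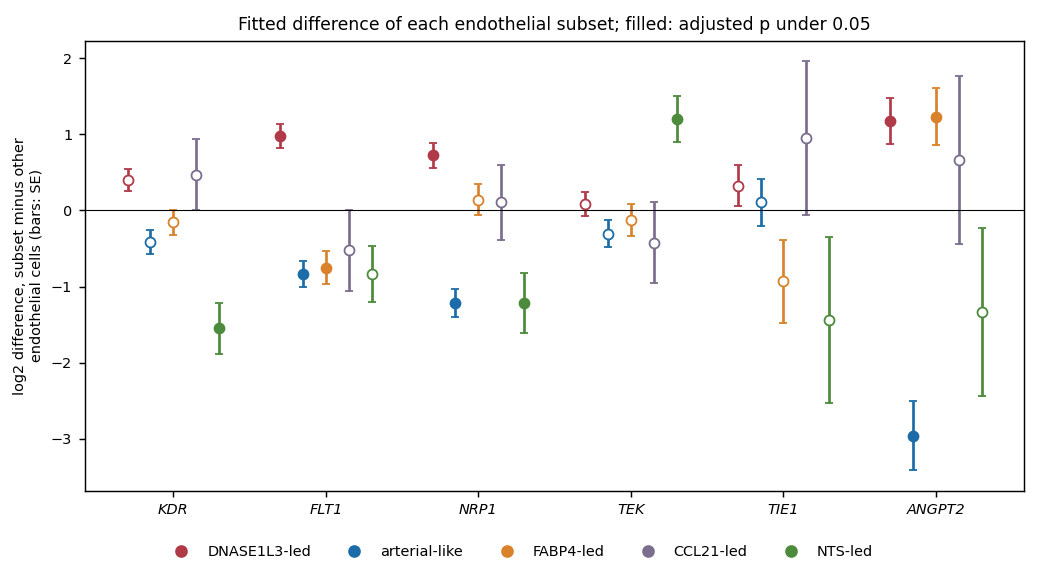
Fitted log2 difference of each endothelial subset from the other endothelial cells for 6 genes, with bars of 1 SE and filled points where edgeR's adjusted p was under 0.05. FLT1, NRP1 and ANGPT2 lie above 0 in the DNASE1L3-led subset and below 0 in the arterial-like one, and TEK is filled only in the NTS-led subset; the 5 comparisons share cells.

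The CCL21-led subset is where a lymphatic receptor would be looked for, but its calves did not look alike. It held 4, 23 and 15 cells with 50, 229 and 0 CCL21 UMIs in calves 1, 2 and 3, and the 8 lymphatic markers summed to 154, 48.9 and 1.96 UMIs per 10000, with PDPN, TFF3, RELN and STAB2 at 0. Its median depth was 1682.5 UMIs, and 8 epithelial markers summed to 42.7, 12.3 and 13.7 there. FLT4 had 3, 6 and 0 UMIs in it, in 5 of its 42 cells (11.9%), against 3.01% of the other endothelial cells. These FLT4 UMIs came from 1, 4 and 0 cells, and the 0 of calf 3, from 15 shallow cells, does not show that FLT4 was absent. Calf 3 had 21 endothelial cells with a FLT4 UMI outside this subset, and 0 CCL21 UMIs in its endothelial cells. FLT4 was too low to be tested in this comparison. KDR was at 6.58 and 9.78 UMIs per 10000 in calves 2 and 3, the highest of the subsets, but did not pass (0.47 ± 0.47, edgeR adjusted p = 0.90, with a median over all genes of -0.39). None of 7 genes passed in edgeR, none had an unadjusted p under 0.05, none passed under any of the 7 alternatives that gave a value, DESeq2 among them, and 0.103% of all genes tested differed. Leaving out calf 1, which counts among these alternatives, refit the same sums.

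Within the stroma, the mural cells came as a subset led by HIGD1B and one led by SORBS2, and most fibroblasts as subsets led by PENK and CCL11, with values from calves 2 and 3 and no test. ANGPT2 was at 1.90 and 2.67 UMIs per 10000 in the HIGD1B-led subset and 0.933 and 0.717 in the SORBS2-led one, and had no UMI in PENK-led or CCL11-led cells; the 3 fibroblast UMIs lay in a small TGM2-led subset of calf 2. NRP1 was at 2.70 and 3.44 in HIGD1B-led cells, 0.978 and 2.01 in PENK-led cells, 0.557 and 0.547 in CCL11-led cells and 0 and 0.772 in SORBS2-led cells. Both genes were thus highest in the HIGD1B-led mural cells of both calves. ANGPT1 was at 1.11 and 0.802 in HIGD1B-led cells and at 0.311 and 0.914 in PENK-led cells, so that the higher of this pair was HIGD1B-led in calf 2 and PENK-led in calf 3.

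Within the epithelium, VEGFA was lowest in calf 2 in every cluster. Its levels in calves 1, 2 and 3 were 0.411, 0.239 and 0.407 UMIs per 10000 in the largest cluster, led by F3, and 0.382, 0.207 and 0.408 in the CLDN4-led basal-like cluster. They were lower, at 0.219, 0.0972 and 0.226, in the LY6D-led basal-like cluster, and at 0.219, 0.0979 and 0.237 in the suprabasal-like cluster led by KRTDAP. The TOP2A-led cycling cluster was at 0.208, 0.131 and 0.251. The LRP4-led cluster, with a median mitochondrial share of 16.8% and a median depth of 2790.5 UMIs, was at 0.543, 0.193 and 0.595, the highest of the clusters in calves 1 and 3 but not in calf 2. The CLDN4-led cluster thus exceeded the LY6D-led and KRTDAP-led clusters within each of the 3 calves. The basal-like names rest on KRT14 and KRT5 among the leading genes of the CLDN4-led cluster and on COL17A1 and KRT15 in the LY6D-led one. CLDN4 and LY6D themselves were on the list of suprabasal markers, and the paper uses CLDN4 to mark granule cells, so these names are uncertain. Suprabasal-like cells against both basal-like clusters gave a log2 difference of -0.29 ± 0.14 for VEGFA (edgeR adjusted p = 0.14), lower in 3 of 3 calves. None of 3 genes tested there, VEGFA, NRP1 and KDR, passed in edgeR and none had an unadjusted p under 0.05, where 31.8% of all genes tested differed (15.7% higher and 16.1% lower). Against the LY6D-led cluster alone the VEGFA difference was 0.13 (adjusted p = 0.55), an alternative added after the data were seen. The sign also turned with doublets kept (0.38) and with cells of at most 10% mitochondrial UMIs (0.41), and without calf 3 a single gene passed.

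Among immune cells, VEGFA was highest in the FCN1-led cluster of 55 cells, at 1.16 and 2.89 UMIs per 10000 in calves 2 and 3, on 34 UMIs in all. NRP1 was at 0.924 and 1.39 there, and at 0.119 and 0.703 in the FCER1A-led cluster. FCN1 is a gene of monocytes and FCER1A one of dendritic cells. HP, S100A9, S100A8, CXCL2 and VNN2 were also among the leading genes of the FCN1-led cluster, and its cell type was not tested.

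**Figure D5:**
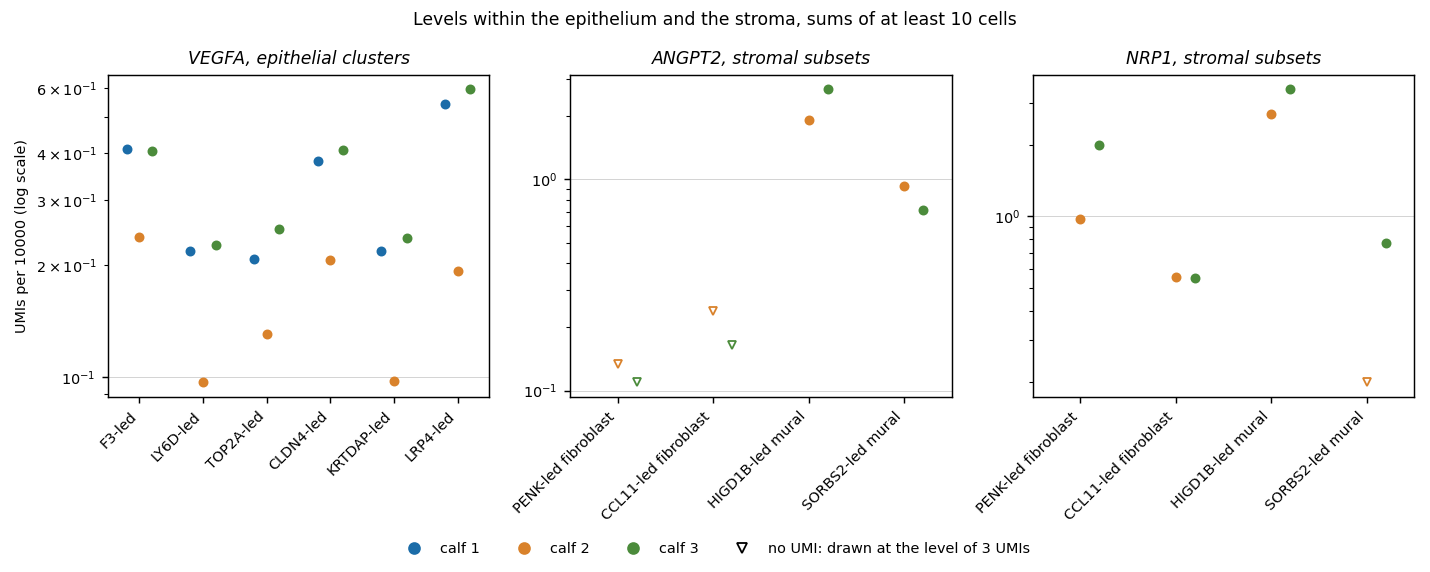
Levels within the epithelium and the stroma in UMIs per 10000 on a log scale: VEGFA in 6 epithelial clusters, and ANGPT2 and NRP1 in 4 stromal subsets, with 1 point per calf for sums of at least 10 cells and open triangles at the level of 3 UMIs where a calf had none. VEGFA is lowest in calf 2 in each epithelial cluster, and ANGPT2 and NRP1 are highest in HIGD1B-led mural cells.

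Of 31 other genes of these pathways, 30 were in the matrices and 18 were tested between classes. Between endothelial and epithelial cells 12 rose and 0 fell in edgeR, where 25.8% and 23.9% of all genes tested did, with a median log2 difference of 1.92 over the 18 and -7.9e-05 over all genes. The 5 with the largest differences were CDH5, the junctional cadherin of endothelium (10.10 ± 0.40), the co-receptor ENG (9.69 ± 0.35), PTPRB, the phosphatase that acts on TEK (9.34 ± 0.37), the nitric oxide synthase NOS3 (8.87 ± 0.43) and the Notch ligand DLL4 (8.81 ± 0.31; edgeR adjusted p of the 5 at most 2.2e-13). CDH5 was also on the marker list that named the endothelial class, so its difference, counted among the 12, was partly set by the naming. PTPRB stood in the same class as its substrate.

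Another angiopoietin and a further VEGF ligand were also placed by class. ANGPT4 had 57 UMIs in fibroblasts, 69 in mural cells of calves 2 and 3 and 1 in endothelial cells, so that its pooled level was 383 times higher in fibroblasts (counting interval 66.1 to 15403) and 533 times higher in mural cells (92.6 to 21356) than in endothelial cells. VEGFC, a ligand of FLT4, had 501 UMIs in endothelial cells and none in mural cells, where it was at least 21.6-fold lower. Against fibroblasts its log2 difference of 1.04 ± 0.41 (endothelial minus fibroblast) did not pass (edgeR adjusted p = 0.056). Of the 18 genes tested, the endothelial minus fibroblast comparison called 10 higher and 3 lower, where 16.5% and 15.8% of all genes were, and the endothelial minus mural one 12 and 1, where 12.2% and 11.7% of all genes were.

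In the DNASE1L3-led and arterial-like subsets, the pathway genes with the largest differences were APLNR, the apelin receptor, at 1.86 ± 0.22 in the DNASE1L3-led subset (edgeR adjusted p = 1.5e-08) and -4.50 ± 0.38 in the arterial-like one (edgeR adjusted p = 4.4e-13), and ENG, at 0.87 ± 0.14 (edgeR adjusted p = 6.1e-06) and -1.66 ± 0.15 (edgeR adjusted p = 6.5e-12). HIF1A, the hypoxia factor, was at 0.76 ± 0.19 (edgeR adjusted p = 0.0054) and -1.21 ± 0.23 (edgeR adjusted p = 6.9e-05), and DLL4 at -0.64 ± 0.19 (edgeR adjusted p = 0.021) and 0.87 ± 0.19 (edgeR adjusted p = 0.00070). Of 19 pathway genes tested 3 rose and 3 fell in the DNASE1L3-led subset, where 4.71% and 4.66% of all genes did, and of 17 tested 4 rose and 3 fell in the arterial-like one, where 5.78% and 7.63% of all genes did. In the NTS-led subset 1 of 18 rose and 3 fell, where 1.97% and 2.52% of all genes did. DLL4 was at -2.83 ± 0.63 there (edgeR adjusted p = 0.00041) and NOS3 at 1.77 ± 0.33 (edgeR adjusted p = 6.6e-06), and APLNR, with 2 UMIs, had a pooled level 5.81 times higher in the other endothelial cells (counting interval 1.60 to 48.1; edgeR adjusted p = 0.028). In the FABP4-led subset EGLN1 rose and NOS3 fell among 18, where 2.44% and 1.68% of all genes did, and in the CCL21-led subset 0 of 19 passed in edgeR.

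Between suprabasal-like and basal-like epithelial cells 6 of 14 pathway genes rose and 4 fell, where 15.7% and 16.1% of all genes did. The semaphorin SEMA3C, a ligand of neuropilins, rose by 3.85 ± 0.60 (edgeR adjusted p = 0.0018), while SEMA3A, another such ligand (-2.76 ± 0.41, edgeR adjusted p = 0.0014), and the FLT4 ligands VEGFD (-1.90 ± 0.36, edgeR adjusted p = 0.0047) and VEGFC (-1.87 ± 0.50, edgeR adjusted p = 0.022) fell. Ligands of the receptors described here were thus measured in the epithelium with levels that differed between the clusters so named.

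Over 27 sums of classes and subsets, each member was set beside the genes whose levels ran most like its own. Pearson's r of the log2 levels was highest for KDR with KANK3 (0.984) and ROBO4 (0.983), for FLT1 with EMCN (0.982) and KDR (0.966), for TEK with EGFL7 (0.976) and CDH5 (0.972) and for TIE1 with TMEM44 (0.957). NRP1 ran most with the basement membrane collagen genes COL4A2 (0.943) and COL4A1 (0.935). ANGPT1 ran with OLFML1 (0.986) and LRRC17 (0.983), PGF with LMOD1 (0.841), ANGPT2 with EFHD1 (0.795), FLT4 with ABCG1 (0.869) and VEGFA with EEF1E1 (0.860). EMCN, EGFL7 and CDH5 were on the marker list that named the endothelial class, so their values were partly set by the naming. The sums share calves, cells and depth, and these values describe the sums only.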

How the data were processed

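The authors deposited, for each calf, whole-number UMI counts per gene and barcode from Cell Ranger (version 3.1.0 per the labels), made with 10x 3′ version 3 chemistry, not normalized; totals were 82263092, 89803289 and 106145091 UMIs in calves 1, 2 and 3. Cells needed 500 to 4000 detected genes, no more than 50000 UMIs and a mitochondrial share of 40% or less, and 191, 908 and 879 doublets were removed by a score against simulated doublets. Cells were merged across calves with Harmony, written for the purpose, and clustered (leidenalg 0.10.2) on 2000 variable genes that excluded the 10 genes and the pathway list. Clusters were named from fixed markers.

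UMIs were summed per calf and class or subset of at least 10 cells and tested with edgeR 4.0.16 (glmQLFit, glmQLFTest; TMM; filterByExpr; R 4.3.3), with calf as a block and Benjamini-Hochberg adjustment over all genes tested at a threshold of 0.05. Sums of 1 calf come from the same animal, and their deviations correlated at 0.101 to 0.757 over 24 pairs of sums. Genes used for clustering count in the shares of all genes tested. DESeq2 1.42.0 was an alternative. The test scripts were tested on simulated data.

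Shares of cells used cells thinned to 2000 UMIs, and shallower cells, 2.41% of epithelial, 11.7% of endothelial and 13.1% of immune cells, were left out. Shares of single calves, counting intervals (95%, exact) and limits (3 counts over the pooled group) cover counting error only. The named genes are the 10 genes, the 5 pathway genes with the largest differences per comparison (the text gives those that passed the test, with others named for their counts) and the 3 most similar genes. The genes and lists were chosen with earlier results of these data known. VEGFC, ANGPT4 and EGLN1 values outside that rule were picked after their values were seen. With 3 calves, p-values rest on few animals.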

Additional observations from a re-analysis of the deposited data

Results flagged for a closer look

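Barcodes with more than 4000 genes were left out of every comparison, and 1621 of them held 3301 UMIs of the 10 genes, with every gene above the limit that 3 counts allow. VEGFA had 1219 of these UMIs, NRP1 998, KDR 518, FLT1 276, TEK 174, TIE1 32, ANGPT2 31, FLT4 24, ANGPT1 23 and PGF 6. The pooled level of KDR in them was 0.104 UMIs per 10000, between that of kept epithelial and endothelial cells. Removed doublets, 1978 barcodes, held 1718 such UMIs, and 3392 barcodes of fewer than 500 genes held 128.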

How the results depend on the processing

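Of 601 recomputed differences of single genes, 533 kept their direction and side of the threshold, 51 lost the call, 1 gained it and 16 changed sign. Counts of genes that differed stayed within 1.5 times of the main count in 126 of 148 recomputations. Settings were changed one at a time, and the cause of a change was not tested.

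Mural against fibroblast cells gave 1 gene in place of 2 in DESeq2, without the replicate block and with a marker gate, and 1 to 2 when a calf was left out. The DNASE1L3-led subset gave 1 in place of 3 in DESeq2 and with doublets kept, 0 without the replicate block, and 1 to 3 when a calf was left out. The FABP4-led subset gave 0 in place of 2 with DESeq2 size factors, in DESeq2, without the replicate block, with doublets kept and with clusters drawn with the members, and 1 without a filter on low genes or at most 10% mitochondrial UMIs. The NTS-led subset gave 0 in place of 3 in DESeq2 and 1 without the replicate block. Suprabasal-like against basal-like cells gave 1 in place of 0 at most 10% mitochondrial UMIs, and 0 to 1 when a calf was left out. Leaving out a calf gave 4 to 7 genes for endothelial against fibroblast cells and 0 to 3 for epithelial against immune cells. The replicate block changed no other count by over 1.5 times.

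Signs changed as follows. VEGFA, endothelial minus fibroblast, went from 0.18 to -0.033 in DESeq2 and -0.31 with a marker gate, and ANGPT2 there to -0.83 with the gate. NRP1, endothelial minus mural, went from -0.08 to 0.015 without a filter, 0.056 without the replicate block and 0.74 with the gate. VEGFA, suprabasal-like minus basal-like, went from -0.29 to 0.13 against the larger cluster alone (an alternative added after the data were seen), 0.38 with doublets kept and 0.41 at most 10% mitochondrial UMIs. With a calf left out, the difference ranged from -0.98 to 0.75 for VEGFA, endothelial minus fibroblast, from -0.40 to 0.28 for NRP1, endothelial minus mural, and from -5.93 to 3.72 for ANGPT2, epithelial minus fibroblast. Epithelial minus immune it ranged from -3.77 to 3.81 for FLT1, -1.58 to 0.21 for NRP1 and -4.41 to 3.18 for ANGPT2.

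The subsets with 2 calves gave no value when calf 2 or 3 was left out. The CCL21-led and NTS-led subsets gave none at 20 cells or more per sum, the CCL21-led subset none with doublets kept, and the NTS-led subset none at most 10% mitochondrial UMIs. Calf 1, with few cells outside the epithelium, limits most class values.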
